A study of Mus musculus with 11 samples.

Results

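The choroid plexus (CP) of mice with experimental autoimmune encephalomyelitis (EAE), a model of multiple sclerosis, was examined for the solute carriers, the gene family whose symbols begin with Slc. Members were all genes of that name whose probe was above the array background, at a detection p under 0.01, in all 3 control pools. Slc22a17, Slc40a1 and Slc11a2 were left out. Of 317 genes with an Slc symbol on the array, 314 remained and 133 of these were members (42.4%). For a gene with several probes, the brightest on average over the pools was used. Members were thus chosen by the detection p in the control pools. The 4 groups of pools were compared, each pool holding the CP of 3 perfused female SJL mice that were 6 to 8 weeks old. EAE was induced with a proteolipid protein (PLP) peptide in Complete Freund's Adjuvant (CFA) and pertussis toxin, and the onset, remission and relapse groups had 3, 3 and 2 pools. The 3 control pools came from mice given phosphate buffered saline in CFA and pertussis toxin on the same schedule, so adjuvant and toxin were shared by every group. Control mice were collected with the onset mice, while the remission and relapse groups were taken on later days, so day and phase cannot be told apart for them. The pools are whole tissue, in which fewer cells of a type and less RNA per cell cannot be told apart. The p-values set a difference between groups against the spread between pools, not between single mice.

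Solute carriers are membrane proteins that move ions, sugars, amino acids, vitamins, metals and nucleosides across the cell surface and the membranes of organelles. In the CP epithelium they carry chloride, bicarbonate and sodium for the secretion of cerebrospinal fluid, and bring glucose, vitamin C, folate and other nutrients into it. The CP stroma also holds fenestrated capillaries and, in EAE, infiltrating leukocytes, and their carriers enter a whole-tissue sample.

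Between 8687 and 10221 of 23978 probes per pool were above background, and the median signal per pool ran from 257 to 378. Of 14 measured markers of the CP epithelium, 13 were above background in all 3 control pools and 0 passed the test in any phase. Their summed signal was 650000 to 657000 in control and 631000 to 652000 at onset, but much of it came from probes such as Ttr and Folr1 that read at the top of the arrays' range, so the sum says little about changes in them. The median log2 difference of the 14 markers from control was -0.05 at onset, -0.01 at remission and 0.006 at relapse. Kcne2, a potassium channel subunit of the epithelium that read below this range, was 12.57, 12.80 and 12.34 in control and 11.92, 11.69 and 12.05 at onset on the log2 scale, with all onset pools below all control pools and an adjusted p of 0.0539. It is 1 marker and does not stand for the 14. Onset pool 3 and remission pool 3 were the closest pair, with 0 of 10012 probes apart by more than 1 on the log2 scale and 0 members apart by more than 0.5, where each of the other pairs had 7 to 266 such probes. Differences are given below on the log2 scale of quantile-normalized signals, with a standard error (SE). A probe was called when its Benjamini-Hochberg adjusted p in limma, over all probes of a comparison, was under 0.05. Probes differ in brightness for reasons of their sequence, so levels are compared only between pools of 1 probe.

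The membership rule gives the share of each substrate class that control CP expresses above background, which is a description with no test. The share was highest for the nucleotide sugar carriers of the Golgi and endoplasmic reticulum, with 11 of 12 genes (91.7%), and for nucleoside carriers, with 5 of 7 (71.4%). It was 25 of 38 (65.8%) for the mitochondrial carriers of the inner membrane, 7 of 11 (63.6%) for vitamin and cofactor carriers and 15 of 26 (57.7%) for metal carriers, which move zinc, copper, iron and magnesium. It was 16 of 45 (35.6%) for amino acid carriers, 7 of 25 (28%) for bicarbonate, chloride and iodide carriers and 4 of 14 (28.6%) for monocarboxylate and dicarboxylate carriers. It was 3 of 15 (20%) for phosphate and sulfate carriers and 3 of 17 (17.6%) for sugar carriers. Of 2 urea and ammonium carriers and 1 thyroid hormone carrier, 0 were members. Beside the transporters, 4 of 5 genes that carry an Slc symbol but encode no carrier were members, among them Slc9a3r1 and Slc9a3r2, the scaffold proteins that hold exchangers and receptors at the membrane. The share was 6 of 16 (37.5%) for lipid, sterol and bile acid carriers, 11 of 18 (61.1%) for orphan carriers, 6 of 21 (28.6%) for organic ion, polyol and drug carriers and 5 of 18 (27.8%) for sodium, proton and calcium exchangers. It was 4 of 19 (21.1%) for carriers of neurotransmitters, taurine and creatine and 1 of 4 (25%) for peptide carriers. All 133 members were above background in all 11 pools as well.

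**Figure D1:**
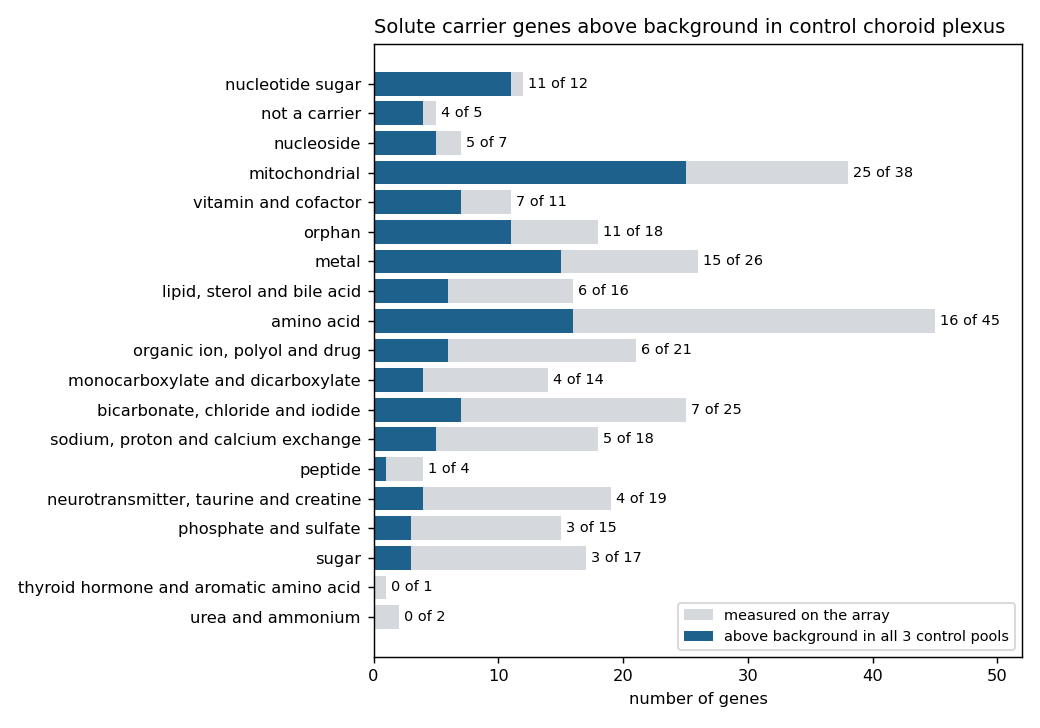
Number of solute carrier genes in each substrate class (horizontal axis, genes). Grey bars are genes measured on the array and blue bars those above background in all 3 control pools, and nucleotide sugar carriers (11 of 12) have the highest share and sugar carriers (3 of 17) one of the lowest.

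Just inside the limit were Slc37a4, Slc35f6 and Slc38a5, whose largest detection p among the control pools was 0.00726, 0.00847 and 0.00847, and just outside were Slc37a1, Slc38a10 and Slc39a3, at 0.0109, 0.0121 and 0.0121. Some carriers that textbooks place in the CP epithelium were not members. Slc4a10, the sodium bicarbonate exchanger, Slc13a4, a sulfate carrier, and Slc26a11, a sulfate and chloride carrier, were above background in 0 of the 11 pools. So were Slc16a1, a lactate carrier, and Slc7a7 and Slc15a3, known from leukocytes. A probe below background shows only that its signal did not exceed the array's negative controls.

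At onset 3 of the 133 members were higher than in control and 0 were lower. This is 2.26% of members, against 1.06% of all probes and 1.48% of all 6679 genes above background in control that were higher, and 0.154% of probes and 0.464% of genes that were lower. At an unadjusted p under 0.05, 16 members were higher (12%, against 6.66% of genes above background) and 7 lower (5.26%, against 7.28%). Among the lower members with the smallest p, Slc35f1 differed by -0.47, the lowest of all members, Slc5a3 by -0.33 and Slc25a30 by -0.26. The 3 called were Slc43a3, which moves nucleobases, Slc9a3r2, a scaffold, and Slc35f3, an orphan of the nucleotide sugar family. The count was 1 without control pool 1, control pool 2 or onset pool 3, and the member left was Slc43a3 each time. In these settings the higher calls over all 23978 probes also fell, from 254 to 42, 40 and 101. The member count was 12 when arrays were weighted by their quality, while the higher calls over all probes rose from 254 to 983. Control pool 1 had the largest weight, at 3.82, and control pool 2 the smallest, at 0.427.

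Slc43a3 had the largest change of all members at onset. Its log2 signal was 9.74, 9.50 and 9.62 in the control pools and 10.61, 10.66 and 10.80 in the onset pools. It was 10.20, 10.39 and 10.70 at remission, with 9.56 and 9.82 at relapse, so the onset and remission pools lay above all control pools, while the relapse pools overlapped them. The difference at onset was 1.07 ± 0.12 (SE, 3 pools against 3), which is 2.10-fold, with an adjusted p of 0.00353 in limma. At remission it was 0.81 ± 0.12 (SE, 3 against 3), with an adjusted p of 0.0287, and at relapse 0.07 ± 0.14 (SE, 2 against 3), with an adjusted p of 0.981. From onset to relapse it fell by 1.001 ± 0.14, with an adjusted p of 0.0199. The gene lies on chromosome 2 at 84936545 to 84958509 (GRCm38.p6), and its other probe was above background in 0 pools.

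Slc9a3r2, also known as NHERF2, links the sodium and proton exchanger Slc9a3 and other membrane proteins to the cell cortex, and lies on chromosome 17 at 24639281 to 24650305. In control its log2 signal was 10.57, 10.46 and 10.54, with 10.99, 11.16 and 11.27 at onset, 10.87, 11.05 and 11.24 at remission, with 10.68 and 10.66 at relapse. All onset, remission and relapse pools were above all control pools. It was higher at onset by 0.61 ± 0.10 (SE, 3 against 3), with an adjusted p of 0.0132. At remission the difference was 0.53 ± 0.10 with an adjusted p of 0.0654, which did not pass. A second probe gave 0.49 at onset, with an adjusted p of 0.193. Slc35f3 had log2 signals of 11.58, 11.46 and 11.67 in control, 11.996, 11.98 and 12.09 at onset, 11.77, 11.80 and 12.05 at remission, with 11.84 and 11.79 at relapse. Its difference at onset was 0.45 ± 0.09 (SE, 3 against 3), with an adjusted p of 0.0292, and 0.30 ± 0.09 at remission, which did not pass.

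The windows of 250 bases before the start site are shown for the called members listed in the RefSeq promoter table, which Slc43a3 is not. Slc9a3r2 and Slc35f3 have 2 windows each there, and the one of the most upstream start site is shown. Whether the windows bear on the differences was not tested. They were searched on both strands for 4 motifs. The GC box, spelled GGGCGG, occurs in 32.7% of 32851 such windows of all genes. The ETS motif, spelled CCGGAAG, occurs in 6.91% of these windows. A TATA box with the letters TATAAA is found in 12.4% of the same windows. The E-box with the letters CACGTG, which reads alike on both strands, is found in 6.02% of them. Capitals mark the motif found. Slc9a3r2 (chr17:24650306-24650555, minus strand, GRCm38.p6) holds 4 GC boxes, Slc35f3 (chr8:126138875-126139124, plus strand) holds 1 and lies within the span of its gene, 126138398 to 126395987, and Slc24a4 (chr12:102128477-102128726, plus strand), a sodium and calcium exchanger called between relapse and onset, holds 1 E-box and no GC box. A match is a description of letters only.
Slc9a3r2: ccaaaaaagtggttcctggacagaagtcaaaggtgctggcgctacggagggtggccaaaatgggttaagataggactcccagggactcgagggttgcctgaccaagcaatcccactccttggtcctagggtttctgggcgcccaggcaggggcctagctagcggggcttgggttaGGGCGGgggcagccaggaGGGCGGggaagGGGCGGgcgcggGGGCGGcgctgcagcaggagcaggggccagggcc
Slc35f3: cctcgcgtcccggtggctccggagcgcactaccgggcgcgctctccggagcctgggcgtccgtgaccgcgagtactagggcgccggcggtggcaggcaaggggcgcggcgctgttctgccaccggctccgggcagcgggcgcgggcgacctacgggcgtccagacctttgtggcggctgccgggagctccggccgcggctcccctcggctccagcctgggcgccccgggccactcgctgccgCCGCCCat
Slc24a4: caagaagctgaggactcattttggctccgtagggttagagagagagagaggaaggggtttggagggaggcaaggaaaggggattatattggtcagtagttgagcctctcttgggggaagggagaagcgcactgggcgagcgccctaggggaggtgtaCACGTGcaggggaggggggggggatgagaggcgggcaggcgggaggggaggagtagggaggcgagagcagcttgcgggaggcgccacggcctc

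**Figure D2:**
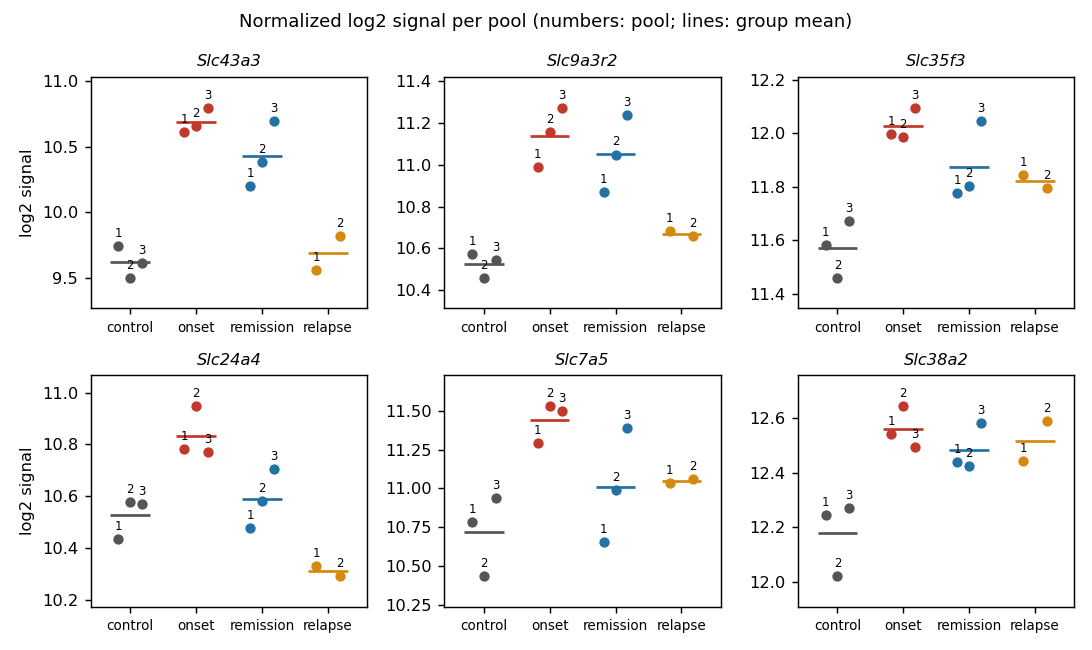
Quantile-normalized log2 signal (vertical axis) of 6 members in each pool, by group, with the pool number beside each point and the group mean as a line. Slc43a3 was 10.61 to 10.80 in the onset pools against 9.50 to 9.74 in the control pools, and 9.56 and 9.82 at relapse.

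Amino acid carriers made up the largest plasma membrane class, and 0 of 16 passed the test in any phase. Slc7a5, the large neutral amino acid transporter that activated lymphocytes raise, came nearest. The control pools had log2 signals of 10.78, 10.43 and 10.94, with 11.29, 11.53 and 11.50 at onset, 10.65, 10.99 and 11.39 at remission, with 11.04 and 11.06 at relapse. All onset pools were above all control pools, and the remission pools overlapped control. The difference at onset was 0.72 ± 0.17 (SE, 3 against 3), with an adjusted p of 0.0580. Slc38a2, a sodium-coupled neutral amino acid transporter, was 12.25, 12.02 and 12.27 in control and 12.54, 12.64 and 12.49 at onset, with a difference of 0.38 ± 0.09 and an adjusted p of 0.0656. It was 12.42 to 12.58 at remission, with 12.44 and 12.59 at relapse, above all control pools in both. Slc3a2, the heavy chain that partners Slc7a5, was 13.80 to 13.85 in control and 13.93 to 14.17 at onset, with a difference of 0.25 ± 0.08 and an adjusted p of 0.236. A second Slc3a2 probe, above background in all 11 pools, gave 0.29 at onset, with an adjusted p of 0.896. Over the pools its correlation with the first probe was 0.04. The median difference of the 16 was 0.09 at onset, 0.06 at remission and 0.18 at relapse.

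Of the 7 bicarbonate, chloride and iodide carriers and the 4 monocarboxylate and dicarboxylate carriers, 0 passed the test in any phase. Slc4a2, the anion exchanger of the basolateral membrane, was 15.94, 16.12 and 15.98 in control and 15.83, 15.99 and 15.95 at onset, a difference of -0.09 ± 0.08. Slc12a2, the sodium, potassium and chloride cotransporter, was 15.90, 15.61 and 15.93 in control and 15.98, 15.97 and 16.01 at onset, a difference of 0.17 ± 0.10. Both read near the top of the arrays' range, whose highest signals ran from 72276 to 73229 per pool. Slc16a6, a monocarboxylate carrier family member, was 13.97, 14.03 and 13.60 in control and 13.58, 13.20 and 13.57 at onset, and all onset pools were below all control pools. Its difference was -0.42 ± 0.13, with an adjusted p of 0.189. Slc16a8, a lactate carrier, was 13.28 to 13.51 in control and 13.55 to 13.85 at onset, with a difference of 0.31 ± 0.12 and an adjusted p of 0.346. Slc2a1, the glucose transporter, differed by 0.08 ± 0.10 at onset.

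Slc24a4, the potassium-dependent sodium and calcium exchanger, was the other member called between phases, and lies on chromosome 12 at 102128727 to 102267133. Its log2 signal was 10.44, 10.58 and 10.57 in control and 10.78, 10.95 and 10.77 at onset, 10.48, 10.58 and 10.70 at remission, with 10.33 and 10.29 at relapse. The onset pools were above all control pools and the relapse pools below all of them. It was 0.31 ± 0.08 higher at onset with an adjusted p of 0.139, and 0.22 ± 0.09 lower at relapse with an adjusted p of 0.870, neither of which passed. The change from onset to relapse was -0.52 ± 0.09 (SE, 2 against 3), with an adjusted p of 0.0423 in limma.

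Among vitamin, metal, taurine, nucleoside and lipid carriers, Slc43a3 was the only member called. The vitamin C transporter Slc23a2, the folate carrier Slc46a1 and the reduced folate carrier Slc19a1 differed by 0.10, 0.02 and 0.16 at onset. Slc5a6, which moves biotin and pantothenate, differed by 0.25 at onset with an adjusted p that did not pass. Among metal carriers, the copper transporter Slc31a1 was 15.13 to 15.37 in control and 15.002 to 15.21 at onset, and Slc31a2, a related copper carrier, was 9.999 to 10.46 in control and 10.65 to 10.74 at onset, a difference of 0.46 ± 0.14 with an adjusted p of 0.227. Slc6a6, the taurine transporter, was 11.49 to 11.67 in control, 11.81 to 11.99 at onset and 11.96 to 12.05 at remission, with no overlap with control in either. Its difference was 0.32 ± 0.08 at onset (adjusted p 0.0948) and 0.42 ± 0.08 at remission (adjusted p 0.0700). The nucleoside transporter of lysosomes Slc29a3 was 10.34 to 10.73 in control, 10.78 to 10.96 at onset and 10.81 to 11.15 at remission, a difference of 0.43 ± 0.11 there. Slc28a3, the concentrative nucleoside transporter, was 10.61 to 10.76 in control and 10.42 to 10.48 at onset, a difference of -0.25 ± 0.09 with an adjusted p of 0.285. Slc44a2, a choline transporter-like protein, was 11.71 to 11.75 in control and 11.94 to 12.03 at remission, above all control pools, with a difference of 0.24 ± 0.07 and an adjusted p of 0.325.

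The mitochondrial carriers were the largest class of members, with 25, and 0 passed the test in any phase. Their median difference was -0.06 at onset, -0.06 at remission and -0.04 at relapse, and 10, 4 and 7 of the 25 were above 0. When arrays were instead brought to 1 shared median, the class median at onset turned to 0.06 with 15 of 25 above 0, and at remission and relapse it stayed at -0.04 and -0.05. Slc25a5, the ADP and ATP carrier, differed by -0.04 at onset and Slc25a3, the phosphate carrier, by -0.09. The nucleotide sugar carriers had a median of -0.0013 at onset, 0.06 at remission and 0.13 at relapse, and 5, 8 and 10 of the 11 were above 0. From onset to relapse all 11 were above 0, against 54.3% of genes above background and 64.7% of all members, with 0 passing the test, and 10 of 11 were above 0 under scaling to a common median or without relapse pool 1.

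**Figure D3:**
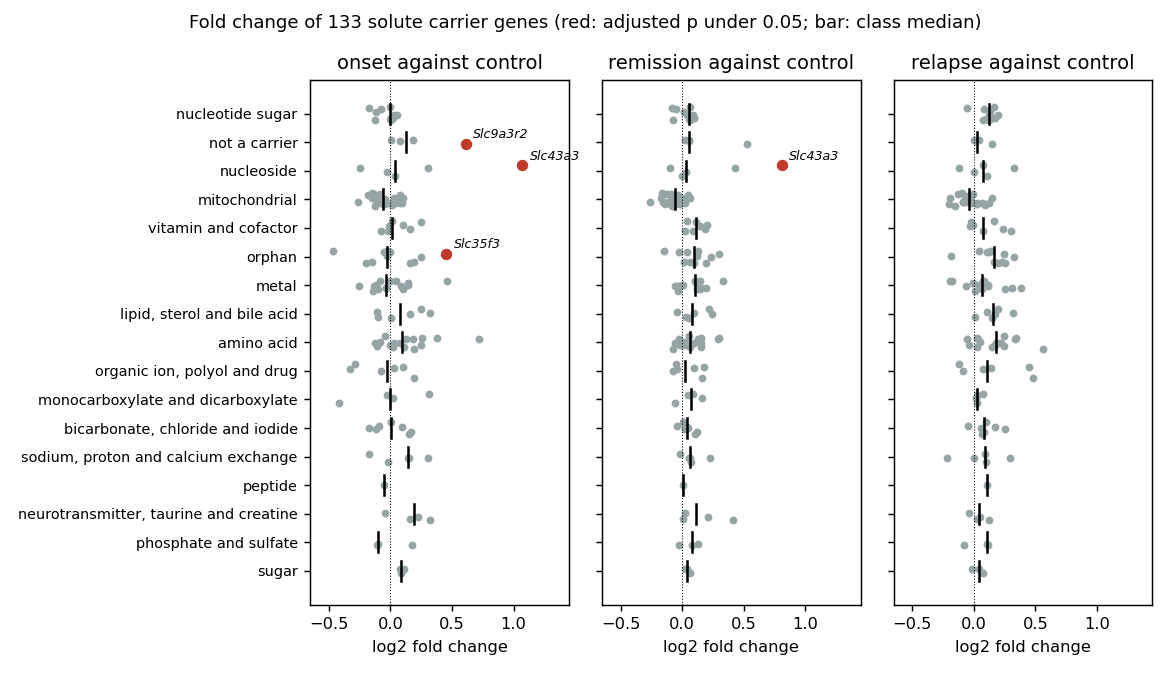
Log2 fold change against control (horizontal axis) of each of the 133 members at onset, remission and relapse, in rows by substrate class, with black bars at class medians. Red points passed the adjusted p of 0.05 and are named, and these are Slc43a3, Slc9a3r2 and Slc35f3 at onset and Slc43a3 at remission.

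At remission 1 of 133 members was higher than in control, Slc43a3, and 0 were lower. This is 0.752% of members, against 0.204% of all probes and 0.374% of genes above background that were higher. At an unadjusted p under 0.05, 10 were higher (against 4% of genes above background) and 1 lower (against 3.67%). The count was 0 without control pool 1, control pool 2, remission pool 2 or remission pool 3. In these settings the higher calls over all 23978 probes were 4, 7, 0 and 18, against 49 with all pools. At relapse, with 2 pools, 0 members were called, against 0.0125% of all probes that were higher and 0 that were lower, and 17 were higher and 1 lower at an unadjusted p under 0.05, against 3.92% and 2.23% of genes above background. Slc47a1, a multidrug and toxin extrusion carrier, was 9.10 to 9.36 in control and 9.70 and 9.61 at relapse, a difference of 0.45 ± 0.12 with an adjusted p of 0.580. Slc1a3, the glutamate transporter of glial cells, was 9.90 to 10.29 in control and 10.66 in both relapse pools, a difference of 0.56 ± 0.20. Astrocyte markers, Slc1a3 among them, had summed signals of 12100 to 15700 in control and 17200 to 18600 at relapse. Sums of oligodendrocyte markers were 9830 to 17300 and 21100 to 22200, and of neuron markers 14000 to 14900 and 16300 to 18100. Of these markers 0 were called at relapse. Ependyma marker sums overlapped control. The part of brain tissue in the members' relapse differences was not tested. Slc22a8, an organic anion transporter, was 9.75 to 9.85 in control, and its 2 relapse pools were 10.73 and 9.85.

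From onset to relapse 2 members were lower, Slc43a3 and Slc24a4, which is 1.5% of members against 0.196% of all probes and 0.464% of genes above background, with 0 higher against 0.0959% and 0.12%. At an unadjusted p under 0.05, 17 were higher and 7 lower, against 8.91% and 5.14% of genes above background. The count of 2 was 0 without onset pool 1 or onset pool 3. In these settings the lower calls over all 23978 probes were 2 and 12, against 47 with all pools. Leaving out a relapse pool left a single pool in that group, so calls are not counted here. Between remission and onset 0 were called, against 0 of all probes, and 6 were higher and 3 lower at an unadjusted p under 0.05, against 2.05% and 2.10% of genes above background. Between relapse and remission 0 members were called, against 0 of all probes higher and 0.0292% lower (0.105% of genes above background), and 3 were higher and 4 lower at an unadjusted p under 0.05, against 3.11% and 2.77% of genes above background.

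The log2 difference from control was above 0 in 70 of 133 at onset (52.6%), 89 at remission (66.9%) and 95 at relapse (71.4%), against 40.8%, 44.1% and 49.1% of the genes above background. The median difference of members was 0.0026 at onset, 0.04 at remission and 0.07 at relapse, against -0.03, -0.02 and -0.0029 of those genes. Under scaling to a common median the members' shares were 69.9%, 71.4% and 65.4%, and their medians 0.09, 0.06 and 0.07. The medians over all probes under that scaling were -0.0062, -0.022 and -0.015. Without onset pool 3 the onset share was 44.4% and the median -0.0094, while the median was 0.04 without onset pool 1. The relapse median was 0.03 without relapse pool 1 and 0.11 without relapse pool 2. Shares of the genes above background were not computed under that scaling or with a pool left out. All pools beyond all control pools held for 23 members above and 13 below at onset, 16 above and 2 below at remission and 36 above and 6 below at relapse, where the genes above background gave 8.58% and 11.6%, 5.88% and 7.23%, and 12% and 9.22%. The members' own shares were 17.3% and 9.77%, 12% and 1.5%, and 27.1% and 4.51%. The 95% interval of the difference lay within 1.5-fold for 121 of 133 members at onset, 126 at remission and 123 at relapse, and the median distance from the estimate to its bounds was 0.209, 0.209 and 0.234.

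Markers of endothelium moved with Slc43a3 and Slc9a3r2. Of 13 measured markers, 7 were higher at onset, 7 at remission and 0 at relapse, and their summed signal was 17400 to 20900 in control, 29100 to 34500 at onset, 29500 to 35600 at remission and 17600 to 19800 at relapse. Kdr was above background in 0 pools. The mean log2 signal of the 9 markers above background in every control pool was 10.42 to 10.70 in control and 11.17 to 11.41 at onset, and 10.49 and 10.63 at relapse. All onset and remission pools were above all control and relapse pools in the marker mean and in both members. Neutrophil markers, of which 6 of 12 were higher at onset and 0 at remission, had summed signals of 4990 to 8880 in control. The neutrophil sums were 17700 to 32100 at onset, 9590 to 18400 at remission and 5520 to 5820 at relapse. Macrophage and monocyte markers, of which 2 of 12 were higher at onset and 1 at remission, had sums of 8760 to 12800 in control. Their sums were 14500 to 18400 at onset, 14400 to 18200 at remission and 13800 to 14100 at relapse. In the neutrophil and the macrophage sums, too, all onset and remission pools were above all control and relapse pools. Of 9 lymphocyte markers 3 were higher at onset, with sums of 2360 to 2830 in control and 3370 to 3980 at onset, and 0 were above background in all control pools. Stroma and mural cell markers summed to 91500 to 108000 in control and 114000 to 121000 at onset, with 1 of 11 called. For 6 markers of blood-brain barrier endothelium the sum was 51400 to 58700 in control and 42700 to 48100 at onset, the other way from the 13 endothelial markers, and their median difference at onset was -0.12. Most of that sum came from Slco1c1, which the CP epithelium also expresses, and the 1 called was Ly6c1, higher at onset. The part of these cell types in the 2 members' differences was not tested.

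**Figure D4:**
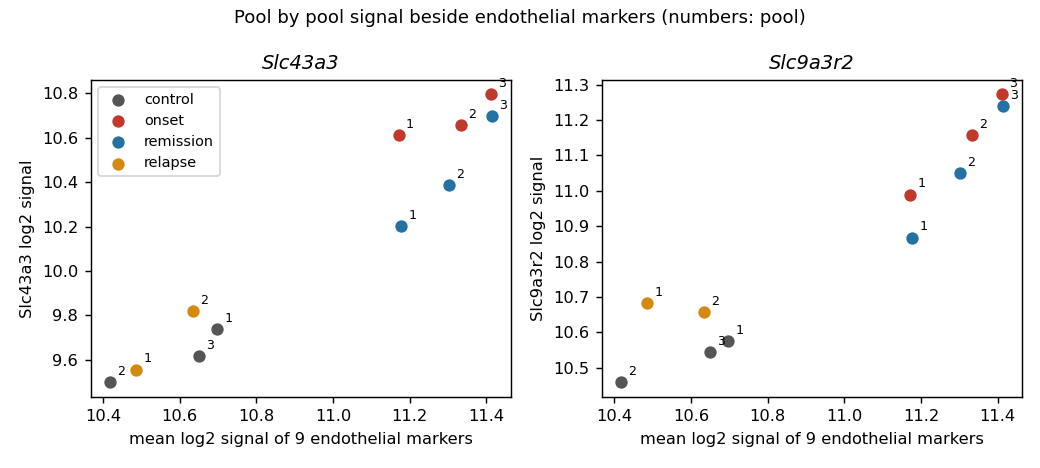
Log2 signal of Slc43a3 and Slc9a3r2 (vertical axes) against the mean log2 signal of 9 endothelial markers (horizontal axis), 1 point per pool with its number. Control and relapse pools lie at marker means of 10.42 to 10.70 and onset and remission pools at 11.17 to 11.41.

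Slc11a1, the iron and manganese transporter of phagocyte lysosomes, had the widest spread of all members. In log2 signal it was 12.95, 14.71 and 12.55 in control, 14.02, 12.63 and 13.32 at onset, 14.51, 13.23 and 13.45 at remission, with 13.05 and 13.37 at relapse, and the groups overlapped. Its difference at onset was -0.08 ± 0.50, with an interval from -1.16 to 1.00, and its other 2 probes were above background in 0 pools. Control pool 2, onset pool 1 and remission pool 1 were the highest of their groups for Slc11a1, and for Slc35f5 (10.03, 10.07 and 10.25) and the zinc transporter Slc39a10 (10.10, 9.81 and 10.04). The pattern held for 16 of 133 members (12%), against 13.7% of all genes above background. The same 3 pools were the lowest of their groups for 19 members (14.3%, against 18.1%), Slc43a3, Slc9a3r2 and Slc7a5 among them.

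**Figure D5:**
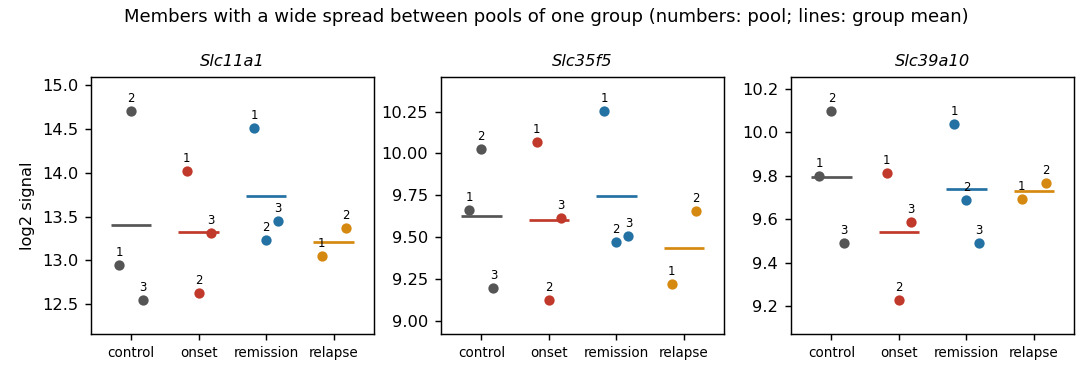
Quantile-normalized log2 signal (vertical axis) of Slc11a1, Slc35f5 and Slc39a10 in each pool, with the pool number beside each point and the group mean as a line. Control pool 2, onset pool 1 and remission pool 1 are the highest of their groups in all 3 panels.

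Transporters outside the family were also read. Of 37 ABC transporters measured, 17 were above background in any pool and 0 were called, and of 21 partner proteins of carriers 0 were called. Of 41 carriers under other symbols, Slco2b1 was called at onset and again at remission, and 1 of the 41 was lower from onset to relapse. Of all probes 1.06% were higher at onset, 0.204% higher at remission and 0.196% lower from onset to relapse. Slco2b1 is an organic anion transporter. Its log2 signal was 9.88, 9.87 and 9.96 in control and 10.73, 10.46 and 10.67 at onset. It was 10.50, 10.45 and 10.70 at remission, with 10.02 and 9.91 at relapse. The difference at onset was 0.72 ± 0.09, with an adjusted p of 0.00500.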

How the data were processed

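RNA of 11 CP pools was hybridised to Illumina MouseRef-8 beadchips. The authors used BeadStudio and deposited signal intensity per probe without normalization, detection p-values against the negative controls, and log2 values that were quantile-normalized in R. The deposited log2 values differ from those computed here by at most 0.0888. Here the log2 of the signals was quantile-normalized and a mean per group was fitted over all 11 arrays in R 4.3.3 with limma 3.58.1 (lmFit and eBayes, two-sided, 5.53 prior degrees of freedom), with Benjamini-Hochberg adjustment over 23978 probes within each comparison. 5 duplicate rows were left out. Of the probes, 20917 have 1 gene in the platform annotation, 3060 none and 1 several. Of the members, 32 have more than 1 probe. Beside the calls, the genes named were drawn from the members with the smallest p per phase, the textbook carriers of the epithelium and of leukocytes, the brightest of each class, the widest control spread and those next to the detection limit. Not all genes of these kinds are named. The members, substrate classes and marker lists were chosen with earlier results of these data known. In simulated data for onset against control with 23978 probes, simulated log2 changes of 0.5, 1 and 2 were called in 61.2%, 95.5% and 100% of the changed probes, and 9 unchanged probes were called. The changed probes were all above background in all 11 pools, and noise was drawn for each probe on its own. In the real pools deviations are shared across probes, with a correlation of 0.62 for control pool 2 and remission pool 1. These rates are therefore not those of the real comparisons. Arrays give no counts, so their number limits the precision. Sequences and positions are from RefSeq, GRCm38.p6. The alternatives were neqc background correction, a filter on dim probes, the authors' log2 values, median scaling, only the 2 groups compared, a replicate block, array weights, another variance prior, 1 probe per gene, other detection limits and each pool left out.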

Additional observations from a re-analysis of the deposited data

Results flagged for a closer look

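For 3 members every onset pool moved one way from the control pools and every relapse pool the other way. Of the genes above background, 8.58% had all onset pools above all control pools and 11.6% had them below. At relapse these shares were 12% and 9.22%, so such separation is common with so few pools. The share of genes with opposite moves was not counted, and whether 3 members is more than expected was not tested. Slc24a4 was 0.31 higher at onset and 0.22 lower at relapse (log2 difference -0.22), Slc35f6, an orphan, had -0.15 and 0.17, and Slc35g1, an orphan, had -0.20 and 0.25. The difference between the phases was tested directly as relapse against onset in limma. It was -0.52 for Slc24a4 (adjusted p 0.0423), 0.32 for Slc35f6 (adjusted p 0.200) and 0.45 for Slc35g1 (adjusted p 0.0936), so only the first of these 3 passed. These 3 members were picked for their opposite moves in the same pools, so the test is not independent of the choice. Slc43a3 differed between relapse and onset by -1.001 (adjusted p 0.0199). Its own differences from control were 1.07 at onset and 0.07 at relapse.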

How the results depend on the processing

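The number of members higher at onset was 3, and 12 with array weights and 1 without control pool 2, onset pool 3 and remission pool 3 (chosen after seeing the data). Leaving out 1 pool at a time gave 1 to 4. The number lower at onset was 0, and 3 with array weights, and 0 to 1 with 1 pool left out. The number higher at remission was 1. It was 0 with neqc, with only the 2 groups compared, without onset pool 3 and remission pool 3, and without these and control pool 2. It was 2 with 1 probe per gene and 4 with array weights, and 0 to 2 with 1 pool left out. The number higher from onset to relapse was 0, and 1 with array weights. The number lower from onset to relapse was 2, and 3 with array weights and 1 with neqc, with eBayes with trend and robust and without onset pool 3 and remission pool 3, and 0 to 2 with 1 pool left out. Slc43a3 at onset passed in 22 of 22 alternatives (adjusted p 0.00011 to 0.0194) and at remission in 13 of 22. Slc9a3r2 at onset passed in 18 of 23, Slc35f3 at onset in 12 of 22, Slc24a4 from onset to relapse in 11 of 22, and Slc7a5 at onset in 8 of 22. The cause of these changes was not tested. No called value changed sign under the alternatives run. With array weights, calls over all 23978 probes rose too. At onset 983 probes were higher and 753 lower, against 254 and 37 in the main fit. At remission 251 were higher, against 49. From onset to relapse 132 were higher and 229 lower, against 23 and 47.

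Pools share replicate numbers, but the labels do not say that a number marks a shared litter or day. The correlations of same-numbered pools' deviations from their group means ran from -0.59 to 0.47 over all groups, so for the comparisons with control or relapse the numbers are not taken to pair the pools. For onset and remission alone the 3 were 0.46, 0.33 and 0.26, and the comparison of these phases had 0 calls with and without the block. With the replicate block, 0 members were higher at remission than in control (Slc43a3 had an adjusted p of 0.0504) and 1 was lower from onset to relapse, and Slc7a5 at onset passed (adjusted p 0.0320). The beadchip as a block was not run, since the column names do not give the chip. At a detection p under 0.05 in the control pools, 157 genes would be members. The precision is limited by 2 or 3 pools a group.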

Other observations

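Of the 181 measured carriers that were not members, 33 were above background in at least 1 pool. They numbered 11 over the control pools, 31 over the onset pools, 28 over the remission pools and 19 over the 2 relapse pools. A carrier above background in all 3 control pools would have been a member, so the rule itself holds the control count down. These counts therefore do not show that carriers were switched on in EAE. The neuronal and leukocyte glucose transporter Slc2a3 was above background in 0 control pools, 3 onset pools, 2 remission pools and 2 relapse pools. Its log2 signal was 8.62, 8.46 and 8.74 in control and 9.08, 9.03 and 9.07 at onset, and it was called at onset with an adjusted p of 0.0471. Against the detection limit of the arrays this is at least 1.01-fold higher. Slc25a45, a mitochondrial carrier, was above background in 0 control and 3 onset pools, at 8.83, 8.37 and 8.87 in control and 9.15, 9.21 and 9.10 at onset, with an adjusted p of 0.0828. Slco1c1, the thyroid hormone carrier of the CP and of brain capillaries, was 15.48, 15.68 and 15.42 in control and 15.07, 15.21 and 15.20 at onset, a difference of -0.37 with an adjusted p of 0.233.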
